A study of Homo sapiens with 6 samples.

Results

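The MEF2 family of transcription factors was followed through the conversion of human dermal fibroblasts by MyoD. The members were the RefSeq transcript rows of MEF2A, MEF2B, MEF2C and MEF2D in the deposited count table, summed per gene and also kept apart. They came to 4 genes of 24409 and 13 rows of 40710, of which MEF2A had 5, MEF2C had 6, and MEF2B and MEF2D had 1 each. All 4 genes passed the filter on low counts.

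MEF2 proteins bind A/T-rich sites in DNA as dimers through a MADS box and an adjoining MEF2 domain. In skeletal muscle they act together with the MyoD family of basic helix-loop-helix factors, and MEF2C is itself a target gene of that partnership. Class IIa histone deacetylases bound to MEF2 silence its targets, and calcium-dependent kinases drive those deacetylases out of the nucleus. The family members differ in where they are found: MEF2A and MEF2D are made in many tissues, MEF2C is known from muscle, brain and vessel wall, and MEF2B from germinal-centre B cells.

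The cells were primary dermal fibroblasts from 1 repository line, measured by polyA RNA-seq in 3 groups of 2 libraries. VP64-MyoD cells carried mouse MyoD fused at its N-terminus, through a serine-glycine linker, to VP64, a strong viral activation domain. WT-MyoD cells carried mouse MyoD without that domain. Either protein was made together with the red fluorescent protein dsRed-Express2, joined by a ribosomal skipping peptide, from a Tet-ON lentivirus; transduced cells were selected in 1 µg/mL puromycin, grown to confluence and harvested after 10 days in 3 µg/mL doxycycline. The untreated fibroblasts served as the control, and the labels do not say whether they carried a vector or received puromycin or doxycycline. The design text calls the 2 libraries of each group biological duplicates.

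Totals ran between 40997586 and 53804224 counts per library, with each read pair entered as 2 counts. The row of the mouse MyoD transgene stood at 115 and 96.5 CPM (counts scaled to a common library size) in VP64-MyoD libraries, at 758 and 1015 CPM in WT-MyoD libraries and at 5.09 and 1.05 CPM in untreated libraries. The amount of transgene transcript therefore differed between the MyoD forms, and its part cannot be told apart from that of the VP64 domain. Summed over 8 skeletal muscle markers, levels were 3017 and 2637 CPM in VP64-MyoD cells, 318 and 289 CPM in WT-MyoD cells and 4.01 and 3.86 CPM in untreated cells. Summed over 7 fibroblast markers, they were 30055 and 27667 CPM in VP64-MyoD cells, 26184 and 30136 CPM in WT-MyoD cells and 39464 and 41807 CPM in untreated cells, so the labelled cell type was present in all groups. COL1A1 and COL1A2 made up most of that sum. Of the 7 markers singly, 5 were lower in VP64-MyoD than in WT-MyoD cells, against 28.2% of all genes tested. Among them were DCN, with a log2 fold change of -2.04, and PDGFRA, with -0.93, while COL1A1 was higher (0.55). In WT-MyoD over untreated cells 3 of the 7 were higher and 2 lower, against 25.7% and 22.2% of genes. In such bulk RNA, a larger number of converting cells and more RNA per cell cannot be told apart.

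Most MEF2 genes are spliced to take up 1 of a pair of mutually exclusive exons, alpha1 or alpha2, just after the DNA-binding part, and some forms add a short exon, beta. In mouse, alpha2 forms of MEF2C and MEF2D are known from muscle. The exons are shown because the counted MEF2C forms differ mainly in them, with the matching alpha1 exons of MEF2A and MEF2D beside them; they were read from GENCODE release 29 transcripts (GRCh38) paired with the RefSeq rows by that release. Capitals mark the exon, and the lower-case letters are the 10 bases of the neighbouring exons on either side, so that each line shows both splice joins, 5′ to 3′ on the transcript strand.
MEF2C alpha1 (chr5:88761185-88761328, minus strand): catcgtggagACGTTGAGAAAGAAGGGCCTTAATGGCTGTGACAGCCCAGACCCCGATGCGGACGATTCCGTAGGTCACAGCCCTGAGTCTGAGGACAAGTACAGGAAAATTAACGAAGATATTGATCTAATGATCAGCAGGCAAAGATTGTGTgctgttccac
MEF2C alpha2 (chr5:88760988-88761125, minus strand): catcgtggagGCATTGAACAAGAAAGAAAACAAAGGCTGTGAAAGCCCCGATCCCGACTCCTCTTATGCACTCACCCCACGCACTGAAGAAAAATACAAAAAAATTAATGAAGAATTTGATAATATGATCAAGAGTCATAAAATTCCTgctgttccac
MEF2C beta (chr5:88730211-88730234, minus strand): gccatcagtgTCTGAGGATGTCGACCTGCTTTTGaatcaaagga
MEF2A alpha1 (chr15:99671323-99671454, plus strand): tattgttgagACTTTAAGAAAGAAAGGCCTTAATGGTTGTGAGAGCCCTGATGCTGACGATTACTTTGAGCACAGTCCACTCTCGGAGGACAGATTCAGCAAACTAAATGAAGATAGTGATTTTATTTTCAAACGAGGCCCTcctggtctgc
MEF2D alpha1 (chr1:156480834-156480971, minus strand): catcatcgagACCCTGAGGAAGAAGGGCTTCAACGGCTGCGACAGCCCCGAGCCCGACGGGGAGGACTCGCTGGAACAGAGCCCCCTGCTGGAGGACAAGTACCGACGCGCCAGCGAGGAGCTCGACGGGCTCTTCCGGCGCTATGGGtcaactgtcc
All 5 are coding exons of a length divisible by 3. The alpha1 exon of MEF2C shared 66.7% of aligned bases with that of MEF2A and 61.1% with that of MEF2D, and the alpha1 exons of MEF2A and MEF2D shared 52.9%. Within MEF2C, alpha1 and alpha2 shared 62.5%. Of the 6 MEF2C rows, 2 held alpha1, 2 held alpha2, 2 held neither and 3 held beta. These exons do not tell every row apart. NM_001193350 and NM_002397, both with alpha1 and beta, were paired with the same GENCODE transcript, and of the 2 alpha2 rows without beta, NM_001193347 also holds the first 60 bases of alpha1 and NM_001131005 does not. MEF2A had 4 rows with alpha1 and 1 with alpha2, and the only MEF2D row counted was an alpha1 form, so alpha2 use by MEF2D was not analysed here.

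Expression of the family shifted towards MEF2C and MEF2D. MEF2C rose under either form of MyoD and rose further with the VP64 fusion, MEF2D rose by about the same amount under both forms, MEF2A moved little, and MEF2B stayed near the detection limit. In VP64-MyoD cells over untreated cells 3 of the 4 genes passed an adjusted p of 0.05, against 63.1% of the 15779 genes tested. In WT-MyoD cells over untreated cells 2 of 4 passed, against 47.9% of genes, and in VP64-MyoD cells over WT-MyoD cells 2 of 4 passed, against 56.6%. A call on its own was thus common in these data, and the sizes of the changes carry more. All p-values are from edgeR's quasi-likelihood test over all genes with Benjamini-Hochberg adjustment.

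**Figure D1:**
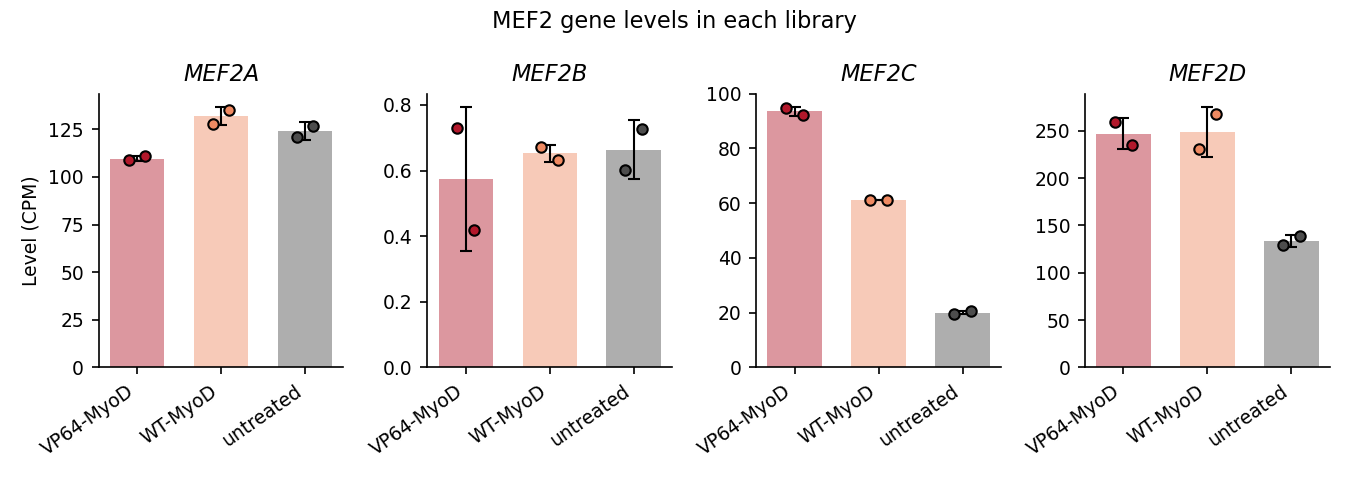
Levels of the 4 MEF2 genes in CPM for VP64-MyoD, WT-MyoD and untreated cells; bars are group means with the SD, points are the 2 libraries, and each panel has its own axis from 0. MEF2C steps down across the 3 groups without overlap, MEF2D is alike under both MyoD forms, and MEF2B lies under 1 CPM throughout.

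MEF2C had 94.7 and 92.2 CPM in VP64-MyoD libraries, 61.2 and 61.0 CPM in WT-MyoD libraries and 19.6 and 20.4 CPM in untreated libraries. No library of one group reached the range of another, and the libraries of a group lay close together. MEF2C was 4.68-fold higher in VP64-MyoD cells than in untreated cells (log2 fold change 2.23, SE 0.07, adjusted p = 1.7e-13 by edgeR). In WT-MyoD cells it was 3.06-fold higher than in untreated cells (log2 fold change 1.61, SE 0.07, adjusted p = 1.2e-11 by edgeR). Between the MyoD forms it was 1.53-fold higher in VP64-MyoD cells (log2 fold change 0.61, SE 0.06, adjusted p = 6.4e-07 by edgeR). Of the 15779 genes tested, 7.03% had a larger log2 fold change in VP64-MyoD over untreated cells, 8.61% in WT-MyoD over untreated cells and 14.6% in VP64-MyoD over WT-MyoD cells. The untreated fibroblasts already carried MEF2C transcript, with 976 and 896 counts.

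MEF2D, the member with the most transcript per length, had 259 and 235 CPM in VP64-MyoD libraries, 230.3 and 268 CPM in WT-MyoD libraries and 129.7 and 139 CPM in untreated libraries. The libraries of the MyoD forms overlapped, and all 4 lay above both untreated libraries. MEF2D was 1.84-fold higher in VP64-MyoD cells than in untreated cells (log2 fold change 0.88, SE 0.08, adjusted p = 9.7e-08 by edgeR) and 1.86-fold higher in WT-MyoD cells than in untreated cells (0.89, SE 0.08, adjusted p = 1.1e-07 by edgeR). Between VP64-MyoD and WT-MyoD cells the log2 difference was -0.01 with an SE of 0.08 (edgeR adjusted p = 0.90), and it ran from -0.12 to 0.09 when 1 library was left out.

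MEF2A, the other widely made member, had 109 and 111 CPM in VP64-MyoD libraries, 128 and 135 CPM in WT-MyoD libraries and 121 and 127 CPM in untreated libraries. The VP64-MyoD libraries were the lowest, and the WT-MyoD libraries lay just above the untreated ones. MEF2A was lower in VP64-MyoD cells than in WT-MyoD cells by a log2 difference of -0.27 (SE 0.06, adjusted p = 0.0019 by edgeR). Against untreated cells the log2 difference in VP64-MyoD cells was -0.18 (SE 0.06, adjusted p = 0.021 by edgeR), and this call ended without VP64-MyoD replicate 1 (adjusted p = 0.14), without VP64-MyoD replicate 2 (0.092) and without untreated replicate 2 (0.18). It also depended on the scaling: with library totals alone the log2 difference was 0.01. In WT-MyoD over untreated cells the log2 difference was 0.09 (SE 0.06, adjusted p = 0.26 by edgeR).

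MEF2B had 0.731 and 0.420 CPM in VP64-MyoD libraries, 0.671 and 0.632 CPM in WT-MyoD libraries and 0.601 and 0.727 CPM in untreated libraries. These levels rest on 22 to 38 counts per library, and the groups overlapped. The log2 difference was -0.21 in VP64-MyoD over untreated cells (SE 0.39, adjusted p = 0.66 by edgeR) and -0.02 in WT-MyoD over untreated cells (SE 0.39, adjusted p = 0.97 by edgeR), so a change was not detectable at this depth. The neighbouring read-through gene BORCS8-MEF2B, 1 of whose transcripts codes for a MEF2B protein, averaged 3.09 ± 0.0548 CPM in VP64-MyoD cells, 3.33 ± 0.0922 CPM in WT-MyoD cells and 3.55 ± 0.314 CPM in untreated cells (SD, n = 2 each). Counts of the overlapping rows can be split between these genes. With the read-through rows added to MEF2B, no comparison passed either (edgeR adjusted p = 0.27, 0.70 and 0.52 for VP64-MyoD over untreated, WT-MyoD over untreated and VP64-MyoD over WT-MyoD cells). That sum mixes rows that went apart in VP64-MyoD over untreated cells. The row coding for MEF2B had a log2 fold change of 0.35 (edgeR adjusted p = 0.35). The others, whose matched transcripts lack MEF2B coding exons, had -0.79 (edgeR adjusted p = 0.03, against 27.9% of rows lower) and 0.09 (0.80). BORCS8 itself, whose product acts in lysosome positioning, was higher in VP64-MyoD than in untreated cells (log2 fold change 0.63, SE 0.16, adjusted p = 0.0029 by edgeR).

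**Figure D2:**
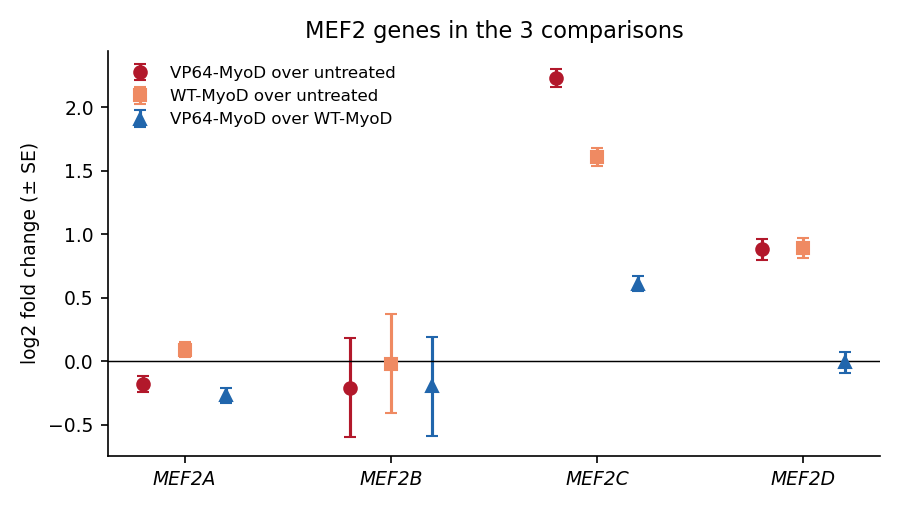
Log2 fold changes of the 4 MEF2 genes with their standard errors in the 3 comparisons, from edgeR. MEF2C lies at 2.23, 1.61 and 0.61, MEF2D at 0.88, 0.89 and -0.01, and the MEF2B estimates have the widest errors.

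Set per length of the longest matched transcript (5824 bases for MEF2A, 1405 for MEF2B, 7561 for MEF2C and 5965 for MEF2D), the make-up of the family changed. These sums hold 5 rows for MEF2A and 6 for MEF2C, but a single row each for MEF2B and MEF2D. The read-through rows were left out of MEF2B. How reads shared by isoforms were assigned is not given, so shares and order between genes are uncertain. The 4 genes together came to 73.0 ± 2.97 CPM per kb in VP64-MyoD cells, 73.0 ± 5.30 in WT-MyoD cells and 46.9 ± 1.98 in untreated cells (SD, n = 2 each). The libraries of the MyoD forms overlapped and all lay above the untreated libraries. MEF2C made up 16.9 ± 0.354% of this sum in VP64-MyoD cells, 11.1 ± 0.849% in WT-MyoD cells and 5.63 ± 0.0849% in untreated cells. MEF2A made up 25.9 ± 1.34% in VP64-MyoD cells, 31.1 ± 1.06% in WT-MyoD cells and 45.4 ± 0.283% in untreated cells.

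MEF2D held 56.7 ± 1.56% of the family's CPM per kb in VP64-MyoD cells, 57.2 ± 1.98% in WT-MyoD cells and 48.0 ± 0.212% in untreated cells. Within each group the order of levels per length was MEF2D, MEF2A, MEF2C and MEF2B, with the limit given above for sums of several rows. Only in the untreated cells did neighbours in that order overlap, with 21.7 and 23.3 CPM per kb for MEF2D and 20.7 and 21.9 for MEF2A. MEF2C stood closest to MEF2A in VP64-MyoD cells, with 12.4 ± 0.230 CPM per kb for MEF2C beside 18.8 ± 0.220 for MEF2A, whereas in untreated cells MEF2C had 2.64 ± 0.0741 CPM per kb beside 21.3 ± 0.812 for MEF2A.

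**Figure D3:**
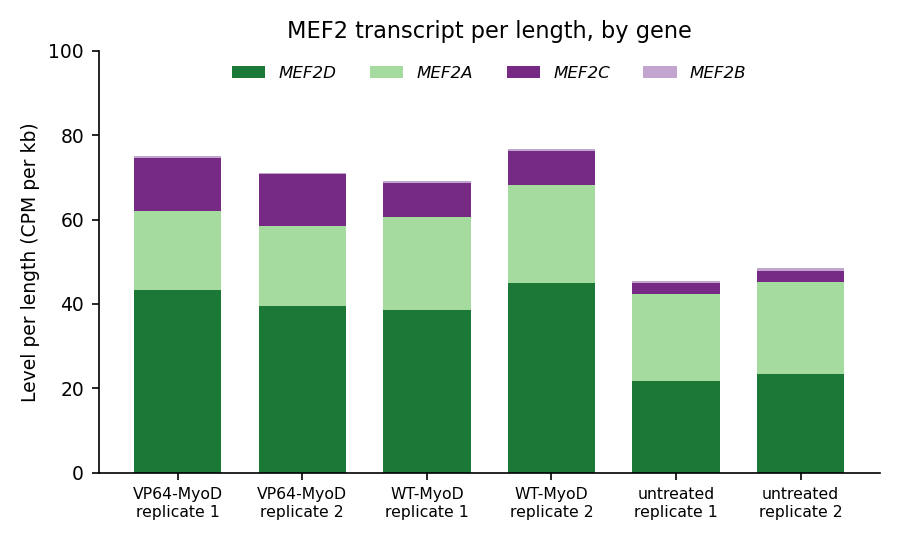
Level per transcript length (CPM per kb) of each MEF2 gene, stacked, in the 6 libraries. The stacks reach 69.2 to 76.7 CPM per kb in the 4 MyoD libraries and 45.5 and 48.3 in the untreated ones, and the MEF2C layer is thickest in VP64-MyoD cells.

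Every MEF2C transcript row rose. All 6 rows were higher in VP64-MyoD over untreated cells, with log2 fold changes of 2.02 to 2.58, against 30.4% of the 28247 rows tested. All 6 were also higher in WT-MyoD over untreated cells (1.39 to 1.81, against 24.0% of rows) and in VP64-MyoD over WT-MyoD cells (0.55 to 0.77, against 25.5% of rows). The rows of a gene had near-equal counts although the isoforms differ only in a few exons; how reads shared by isoforms were assigned is not given in the sources used here, and the rows are not independent of each other.

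The row with the largest log2 fold change in all 3 comparisons was NM_001131005, a form with alpha2 and without beta. It had 16.2 and 14.6 CPM in VP64-MyoD libraries, 9.68 and 8.27 CPM in WT-MyoD libraries and 2.49 and 2.68 CPM in untreated libraries, with no overlap between groups. Its share of the gene's counts was 17.1% and 15.8% in VP64-MyoD libraries, 15.8% and 13.6% in WT-MyoD libraries and 12.7% and 13.2% in untreated libraries. The other alpha2 row without beta, NM_001193347, did not show this: its share averaged 15.6% in VP64-MyoD cells, 16.1% in WT-MyoD cells and 16.1% in untreated cells, and its log2 fold changes were 2.19, 1.61 and 0.57 in VP64-MyoD over untreated, WT-MyoD over untreated and VP64-MyoD over WT-MyoD cells.

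The row with the smallest log2 fold change against untreated cells was NM_001193350, which holds alpha1 and beta. Its share was 18.7% and 19.6% in VP64-MyoD libraries, 18.8% and 19.1% in WT-MyoD libraries and 21.9% and 22.5% in untreated libraries. NM_002397, with the same coding exons, had a share of 18.6 ± 0.616% in VP64-MyoD cells, 19.1 ± 1.26% in WT-MyoD cells and 19.1 ± 2.67% in untreated cells (SD, n = 2 each), and the groups overlapped. A difference between these rows, which hold the same coding exons, was not tested.

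Summed by exon, the alpha2 rows took 32.1 ± 0.388% of MEF2C counts in VP64-MyoD cells, 30.8 ± 0.647% in WT-MyoD cells and 29.1 ± 0.0569% in untreated cells (SD, n = 2 each). The higher alpha2 share in VP64-MyoD cells came from NM_001131005 and not from NM_001193347. The beta rows took 52.6 ± 0.287% in VP64-MyoD cells, 53.5 ± 1.52% in WT-MyoD cells and 55.7 ± 0.494% in untreated cells. These shifts are a few percent of the gene, and the test of transcript use did not pass for any MEF2 row. For NM_001131005 the log2 change against its gene in VP64-MyoD over untreated cells was 0.35, with an adjusted p of 1.00 in edgeR. Over all 18739 rows so tested, 0.256% passed in VP64-MyoD over untreated cells, 0.0534% in WT-MyoD over untreated cells and 0.187% in VP64-MyoD over WT-MyoD cells. A limma fit to the log2 ratio of each row to the rest of its gene, chosen after seeing the data, put that row at 0.40 with an adjusted p of 0.21.

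MEF2A rows followed the small fall of the gene. In VP64-MyoD over WT-MyoD cells 3 of 5 were lower (log2 fold changes of all 5 between -0.33 and -0.16, against 25.9% of rows lower). In VP64-MyoD over untreated cells 2 of 5 were lower (range -0.26 to -0.08, against 27.9% of rows), and in WT-MyoD over untreated cells none was called (range 0.07 to 0.13, all positive, against 24.0% of rows called higher). The alpha2 row NM_005587 had 24.1 and 24.8 CPM in VP64-MyoD libraries, 29.4 and 31.9 CPM in WT-MyoD libraries and 27.9 and 30.8 CPM in untreated libraries, and was lower in VP64-MyoD than in WT-MyoD cells (log2 fold change -0.32, SE 0.08, adjusted p = 0.0026 by edgeR). The calls of both rows against untreated cells ended when single VP64-MyoD or untreated libraries were left out, with adjusted p up to 0.22. The alpha2 row took 22.3 ± 0.210% of MEF2A counts in VP64-MyoD cells, 23.3 ± 0.465% in WT-MyoD cells and 23.7 ± 0.731% in untreated cells.

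**Figure D4:**
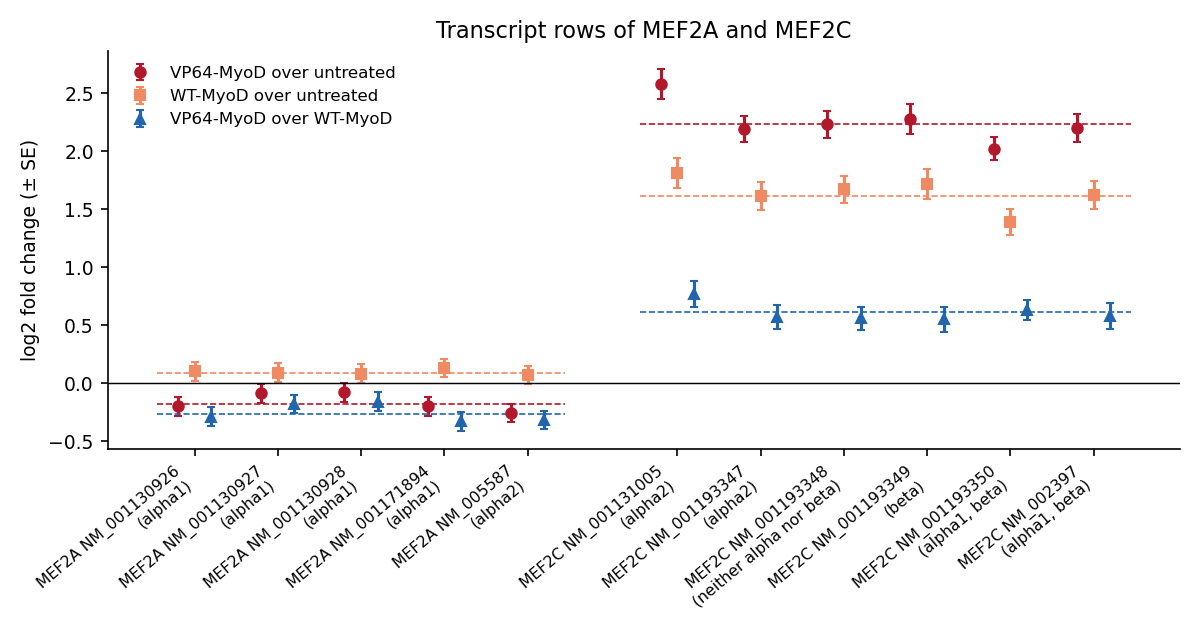
Log2 fold changes with standard errors of the MEF2A and MEF2C transcript rows in the 3 comparisons; the exons each row holds are in brackets and dashed lines mark the gene's own value. MEF2C rows lie between 2.02 and 2.58 for VP64-MyoD over untreated cells, with the alpha2 row NM_001131005 on top.

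The authors' deposited table of called transcripts held 3135, against 40710 rows in the count table. It listed 7 of the 13 MEF2 rows, namely all 6 of MEF2C and the 1 of MEF2D. The largest adjusted p in it, from the authors' own test, was 9.95e-06 for VP64-MyoD and 9.82e-06 for WT-MyoD over untreated cells. These lie far under the threshold used here, so the absence of MEF2A and MEF2B rows is not a like-for-like comparison of calls. In the authors' deposited table NM_001131005 had log2 fold changes of 2.58 in VP64-MyoD and 1.80 in WT-MyoD cells over untreated cells, and NM_005920 of MEF2D had 0.88 and 0.90.

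Transcription factor partners of MEF2 changed mainly through the muscle-specific ones. MYOG, the MyoD-family factor of terminal differentiation, had 281 and 239 CPM in VP64-MyoD libraries, 38.6 and 35.7 CPM in WT-MyoD libraries and 0.321 and 0.227 CPM in untreated libraries. It was higher in VP64-MyoD than in WT-MyoD cells by a log2 fold change of 2.81 (SE 0.08, adjusted p = 4.7e-13 by edgeR). Human MYOD1 had 6.40 and 7.44 CPM in VP64-MyoD libraries and 3.28 and 3.70 CPM in WT-MyoD libraries, and no counts in untreated libraries. Against a floor of 6 counts (3 read pairs) over the untreated group, that is at least 109-fold higher in VP64-MyoD and at least 54.1-fold higher in WT-MyoD cells. Reads of the mouse transgene could be counted on the human gene, which was not tested. MYOD1 and the transgene row were both lowest in untreated cells. Between the MyoD forms, MYOD1 was higher in VP64-MyoD cells and the transgene row was higher in WT-MyoD cells. MYF5 and MYF6, the remaining MyoD-family genes, had no counts in any library.

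The E proteins, the widely expressed dimerisation partners of MyoD, moved less. TCF12 was higher in VP64-MyoD cells (306 and 292 CPM) than in untreated cells (229 and 245 CPM), with a log2 fold change of 0.34 (SE 0.06, adjusted p = 2.6e-04 by edgeR). TCF3 was lower in VP64-MyoD cells (65.8 and 66.0 CPM) than in untreated cells (83.7 and 78.1 CPM), with a log2 fold change of -0.30 (SE 0.06, adjusted p = 7.3e-04 by edgeR), a call that ended with library totals alone (-0.11, adjusted p = 0.22). TCF4 stood at 222 and 237 CPM in VP64-MyoD libraries, 204 and 233 CPM in WT-MyoD libraries and 199 and 194 CPM in untreated libraries; its call in VP64-MyoD over untreated cells (log2 fold change 0.22, edgeR adjusted p = 0.013) ended without VP64-MyoD replicate 2 (0.14), untreated replicate 1 (0.06) or untreated replicate 2 (0.083). SRF, the related MADS-box factor, had 104 and 98.3 CPM in VP64-MyoD libraries, 88.7 and 91.8 CPM in WT-MyoD libraries and 94.3 and 90.8 CPM in untreated libraries. Its log2 fold changes were 0.17 at most in size, and the 0.17 of VP64-MyoD over WT-MyoD cells was called (adjusted p = 0.033 by edgeR). That value ran from 0.12 to 0.21 when 1 library was left out. Of the 6 partners tested, 4 were higher and 1 lower in VP64-MyoD over untreated cells, against 33.0% and 30.0% of all genes tested. WT-MyoD over untreated cells had 2 higher and 1 lower, against 25.7% and 22.2%, and in VP64-MyoD over WT-MyoD cells 4 were higher, against 28.4%. The last count was 2 without VP64-MyoD replicate 1, and none was lower in WT-MyoD over untreated cells without untreated replicate 1. The medians of the partners' log2 fold changes were 0.28, 0.12 and 0.21, against 0.03, 0.00 and 0.02 over all genes tested. The counts of higher partners all include human MYOD1, on which transgene reads could be counted.

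The genes for the proteins that hold MEF2 inactive were lower with the fusion. All 5 repressors tested, the class IIa deacetylases HDAC4, HDAC5, HDAC7 and HDAC9 and the calcineurin-binding corepressor CABIN1, were lower in VP64-MyoD than in WT-MyoD cells, against 28.2% of all genes tested. All 5 were also lower in VP64-MyoD than in untreated cells, against 30.0% of genes. In WT-MyoD over untreated cells 1 was lower and 1 higher, against 22.2% and 25.7% of genes. Both counts changed when single WT-MyoD libraries were left out. Fibroblast markers moved with them, with 5 of 7 lower in VP64-MyoD than in WT-MyoD cells and 5 of 7 lower than in untreated cells; their part was not tested. The median log2 fold change of the 5 was -0.86 in VP64-MyoD over untreated cells, 0.04 in WT-MyoD over untreated cells and -0.65 in VP64-MyoD over WT-MyoD cells.

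HDAC5 had 72.3 and 68.7 CPM in VP64-MyoD libraries, 115 and 128 CPM in WT-MyoD libraries and 131 and 135 CPM in untreated libraries. HDAC7 had 83.4 and 87.4 CPM in VP64-MyoD libraries, 101 and 107 CPM in WT-MyoD libraries and 170.0 and 157 CPM in untreated libraries. Both genes had their lowest libraries in the VP64-MyoD group, and HDAC7 alone of the 5 was also lower in WT-MyoD than in untreated cells (log2 fold change -0.65, SE 0.07, adjusted p = 5.4e-07 by edgeR). HDAC9, which MEF2 can itself activate, had 11.1 and 10.8 CPM in VP64-MyoD libraries, 23.3 and 25.2 CPM in WT-MyoD libraries and 18.7 and 21.1 CPM in untreated libraries. It lay on opposite sides of the untreated level under the MyoD forms, and differed between them by a log2 fold change of -1.14 in VP64-MyoD over WT-MyoD cells (SE 0.09, adjusted p = 4.8e-08 by edgeR). Its call as higher in WT-MyoD over untreated cells (log2 fold change 0.28, edgeR adjusted p = 0.015) ended without untreated replicate 1 (0.20, adjusted p = 0.17).

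HDAC4 had 29.3 and 26.8 CPM in VP64-MyoD libraries, 38.0 and 50.5 CPM in WT-MyoD libraries and 39.8 and 39.9 CPM in untreated libraries. CABIN1 had 65.1 and 66.0 CPM in VP64-MyoD libraries, 81.3 and 89.1 CPM in WT-MyoD libraries and 85.0 and 80.3 CPM in untreated libraries. These 2 genes were lowest in both VP64-MyoD libraries and overlapped between WT-MyoD and untreated cells. With library totals alone the call of CABIN1 in VP64-MyoD over untreated cells ended (log2 fold change -0.15, edgeR adjusted p = 0.089), while the other 4 repressors stayed lower.

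**Figure D5:**
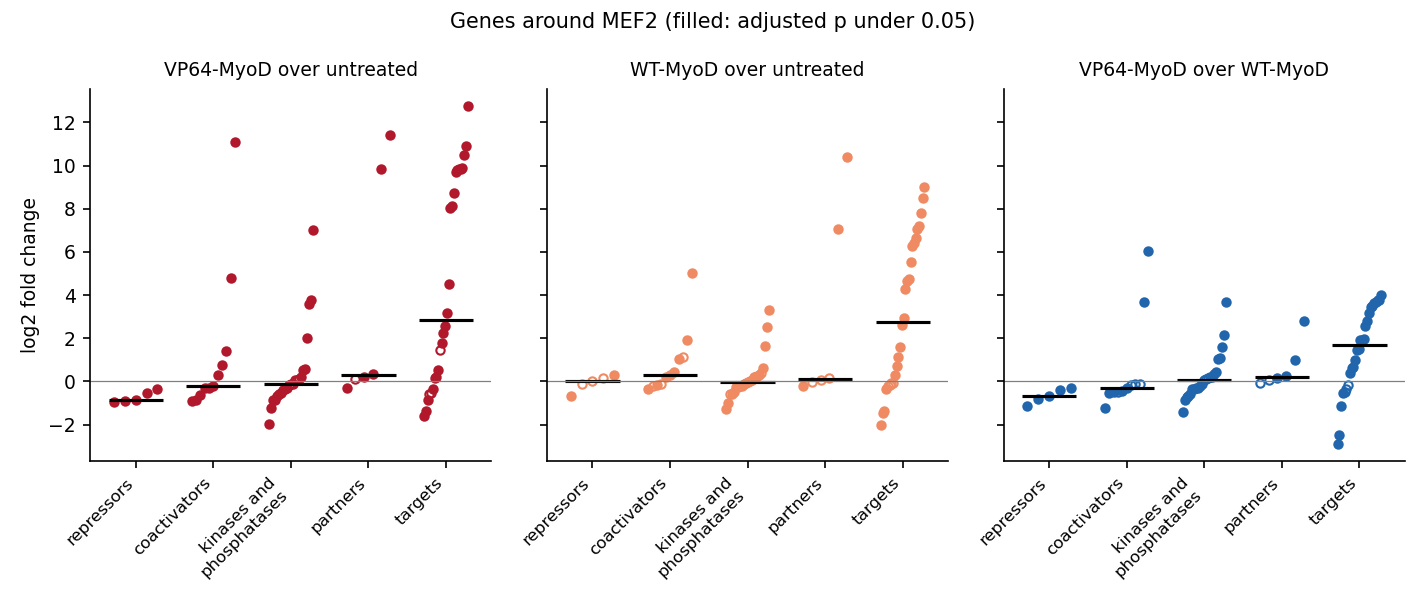
Log2 fold changes of the genes around MEF2 by list in the 3 comparisons; each point is a gene, filled where the adjusted p is under 0.05, and black lines are list medians. The 5 repressors lie below 0 in VP64-MyoD over untreated and VP64-MyoD over WT-MyoD cells, and the medians of the targets lie at 2.86, 2.77 and 1.70.

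Coactivators split in both directions. Of 11 tested, 5 were higher and 6 lower in VP64-MyoD over untreated cells, against 33.0% and 30.0% of genes. In WT-MyoD over untreated cells 6 were higher and 2 lower, against 25.7% and 22.2%, and in VP64-MyoD over WT-MyoD cells 2 were higher and 5 lower, against 28.4% and 28.2%. The medians were -0.22, 0.32 and -0.30. Of the list, MYOCD and VGLL2 differed most between the MyoD forms. MYOCD, myocardin, had 4.60 and 3.93 CPM in VP64-MyoD libraries, 0.283 and 0.389 CPM in WT-MyoD libraries and 0.160 and 0.136 CPM in untreated libraries.

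VGLL2, a vestigial-like cofactor of skeletal muscle, had 5.72 and 5.38 CPM in VP64-MyoD libraries, 0.141 CPM and no counts in WT-MyoD libraries, and no counts in untreated libraries. It was at least 86.7-fold higher in VP64-MyoD than in untreated cells, against the same floor of 6 counts over the group, and its log2 fold change over WT-MyoD cells was 6.05 (SE 0.42, adjusted p = 1.6e-08 by edgeR). That size rests on the 1 WT-MyoD library with counts: the fitted value was 11.02 without WT-MyoD replicate 1, where no counts were left in that group, and 5.26 without WT-MyoD replicate 2. NCOA2, a p160 coactivator, had 44.5 and 44.1 CPM in VP64-MyoD libraries, 92.9 and 112 CPM in WT-MyoD libraries and 78.8 and 85.1 CPM in untreated libraries, so that it was lowest with the fusion. KAT2B, the acetyltransferase PCAF, had 48.2 and 48.8 CPM in VP64-MyoD libraries, 60.1 and 59.6 CPM in WT-MyoD libraries and 27.4 and 29.9 CPM in untreated libraries. KAT2B rose with both forms, and was lower in VP64-MyoD than in WT-MyoD cells (log2 fold change -0.30, SE 0.07, adjusted p = 0.0013 by edgeR). With library totals alone 3 coactivators were lower in VP64-MyoD over untreated cells. In WT-MyoD over untreated cells 3 were higher without untreated replicate 1; none was lower without either untreated library or without WT-MyoD replicate 1, and 1 was lower without either VP64-MyoD library.

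The kinases and phosphatases that act on MEF2 and its deacetylases held calls in both directions, several at about the share of all genes. Their list also holds RCAN1, a calcineurin inhibitor and not an enzyme of either kind. RCAN1 was lower in WT-MyoD over untreated cells (log2 fold change -0.99) and higher in VP64-MyoD over WT-MyoD cells (1.05), and is in the counts. Of 23 tested, 7 were higher and 10 lower in VP64-MyoD over untreated cells, against 33.0% and 30.0% of genes. In the WT-MyoD over untreated comparison 8 were higher and 7 lower, against 25.7% and 22.2%, and in VP64-MyoD over WT-MyoD cells 8 were higher and 10 lower, against 28.4% and 28.2%. The medians were -0.12, -0.02 and 0.08. Without untreated replicate 1 the counts in WT-MyoD over untreated cells were 4 higher and 4 lower, without untreated replicate 2 they were 4 lower, and without VP64-MyoD replicate 1 there were 6 lower in VP64-MyoD over WT-MyoD cells. CAMK2B, a calcium/calmodulin-dependent kinase, had 56.5 and 54.4 CPM in VP64-MyoD libraries, 4.17 and 4.43 CPM in WT-MyoD libraries and 0.601 and 0.227 CPM in untreated libraries. SIK1, a kinase of class IIa deacetylases, had 165 and 153 CPM in VP64-MyoD libraries, 70.5 and 79.9 CPM in WT-MyoD libraries and 13.2 and 13.0 CPM in untreated libraries. Both rose with either form and rose further with the fusion, by log2 fold changes of 3.69 for CAMK2B and 1.08 for SIK1 in VP64-MyoD over WT-MyoD cells (SE 0.12 and 0.07, adjusted p = 1.5e-12 and 4.0e-09 by edgeR).

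CAMK2A, another member of that kinase family, had 2.58 and 2.79 CPM in VP64-MyoD libraries, 0.636 and 0.584 CPM in WT-MyoD libraries and 0.0802 and 0.318 CPM in untreated libraries. PRKD1, protein kinase D1, which exports class IIa deacetylases from the nucleus, had 31.9 and 33.1 CPM in VP64-MyoD libraries, 60.7 and 56.3 CPM in WT-MyoD libraries and 58.1 and 59.1 CPM in untreated libraries. Its log2 fold change in VP64-MyoD over WT-MyoD cells was -0.85 (SE 0.07, adjusted p = 4.5e-08 by edgeR), and WT-MyoD and untreated cells overlapped. MAPK11, a p38 kinase, had 7.57 and 7.06 CPM in VP64-MyoD libraries, 7.03 and 6.76 CPM in WT-MyoD libraries and 18.1 and 15.6 CPM in untreated libraries, lower to a like extent with both forms.

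Known MEF2 target genes rose together with the muscle programme. The list held 27 genes, MEF2C among them, and 26 passed the filter. MEF2C, MYOG, HDAC9, SRPK3, DES and CKM stand in other lists too. In VP64-MyoD over untreated cells 18 were higher and 4 lower, and in WT-MyoD over untreated cells again 18 and 4. In VP64-MyoD over WT-MyoD cells 19 were higher and 4 lower. Of all genes tested, 33.0%, 25.7% and 28.4% were higher and 30.0%, 22.2% and 28.2% lower in these comparisons. The medians were 2.86, 2.77 and 1.70 against 0.03, 0.00 and 0.02 over all genes, also with a gene that had no counts in untreated cells set at its bound. Many of these genes are also bound by MyoD, so their levels do not measure MEF2 alone, and the muscle marker sums given above moved with them; their part was not tested.

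DES, the intermediate filament desmin, had 1319 and 1102 CPM in VP64-MyoD libraries, 139 and 133 CPM in WT-MyoD libraries and 1.40 and 1.27 CPM in untreated libraries. SMYD1, a muscle histone methyltransferase, had 218 and 195 CPM in VP64-MyoD libraries, 16.2 and 15.5 CPM in WT-MyoD libraries and 0.0401 and 0.182 CPM in untreated libraries. TNNC1, the slow and cardiac troponin C, had 110.1 and 98.8 CPM in VP64-MyoD libraries, 8.76 and 7.78 CPM in WT-MyoD libraries and 0.120 and 0.0909 CPM in untreated libraries. In all 3 genes the groups were far apart and the order was the same. In VP64-MyoD over WT-MyoD cells, where MEF2C differed by 0.61 on the log2 scale and MEF2D by -0.01, the log2 fold changes were 3.16 for DES, 3.70 for SMYD1 and 3.65 for TNNC1 (SE 0.09 each, adjusted p = 2.1e-13, 8.1e-14 and 8.1e-14 by edgeR).

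The largest differences between the MyoD forms among the targets were in LMOD3 and XIRP2. LMOD3, an actin filament nucleator of the sarcomere, had 105 and 99.0 CPM in VP64-MyoD libraries, 6.96 and 5.60 CPM in WT-MyoD libraries and 0.241 and 0.227 CPM in untreated libraries, with a log2 fold change of 4.01 over WT-MyoD cells (SE 0.10, adjusted p = 7.9e-14 by edgeR). XIRP2, an actin-binding Xin-repeat protein, had 17.8 and 18.2 CPM in VP64-MyoD libraries and 1.20 and 1.46 CPM in WT-MyoD libraries, and no counts in untreated libraries. XIRP2 was at least 281-fold higher in VP64-MyoD and at least 20.5-fold higher in WT-MyoD cells than the floor of 6 counts over the untreated group.

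Some listed targets went the other way, named here after their values were seen. The 4 that were lower in VP64-MyoD over untreated cells were HSPB7, NR4A1, KLF2 and HDAC9. HSPB7, a small heat shock protein of heart and muscle, had 34.3 and 30.9 CPM in VP64-MyoD libraries, 180.0 and 184 CPM in WT-MyoD libraries and 84.6 and 82.3 CPM in untreated libraries. It was thus lowest with the fusion and highest with WT-MyoD, with a log2 fold change of -2.48 in VP64-MyoD over WT-MyoD cells (SE 0.07, adjusted p = 2.8e-13 by edgeR). NR4A1, an immediate-early nuclear receptor, had 5.63 and 6.72 CPM in VP64-MyoD libraries, 6.64 and 7.25 CPM in WT-MyoD libraries and 19.2 and 18.5 CPM in untreated libraries. MEG3, an imprinted non-coding RNA, showed a further pattern, with 218 and 198 CPM in VP64-MyoD libraries, 17.7 and 18.9 CPM in WT-MyoD libraries and 20.2 and 26.3 CPM in untreated libraries. Of the muscle metabolic targets, PPARGC1A, a coactivator of mitochondrial genes, had 0.301 and 0.153 CPM in VP64-MyoD libraries, 1.41 and 1.95 CPM in WT-MyoD libraries and 0.0401 and 0.0909 CPM in untreated libraries. At these low levels its log2 fold changes over untreated cells were 1.76 with the fusion and 4.65 with WT-MyoD, and -2.88 between the forms. Other metabolic targets did not share this fall: between the forms CKM (3.43), ALDOA (0.68) and SLC2A4 (1.49, also low) were higher, and PGAM2 (-0.37) was not called.

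Among 7 genes known to act on MEF2 splicing or related muscle splicing, 2 were higher and 3 lower in VP64-MyoD over untreated cells, against 33.0% and 30.0% of genes. Between WT-MyoD and untreated cells 4 were higher and 3 lower in WT-MyoD cells, against 25.7% and 22.2%, with 1 lower without untreated replicate 2. In VP64-MyoD over WT-MyoD cells 2 were higher and 4 lower, against 28.4% and 28.2%. The medians were -0.04, 0.24 and -0.29. RBFOX1, a splicing factor of muscle and neurons, had 33.4 and 33.9 CPM in VP64-MyoD libraries and 0.353 and 0.341 CPM in WT-MyoD libraries, and no counts in untreated libraries. Its log2 fold change was 6.59 in VP64-MyoD over WT-MyoD cells (SE 0.15, adjusted p = 1.8e-13 by edgeR), and it was at least 527-fold higher than the floor of 6 counts over the untreated group. SRPK3, a muscle kinase of splicing factors and a MEF2 target, had 40.8 and 40.3 CPM in VP64-MyoD libraries, 11.2 and 10.5 CPM in WT-MyoD libraries and 1.56 and 1.95 CPM in untreated libraries. Both thus separated the 3 groups in the order seen for MEF2C.

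The muscleblind genes MBNL1 and MBNL2, regulators of postnatal splicing, were lower with the fusion. MBNL1 had 215 and 220.3 CPM in VP64-MyoD libraries, 276 and 302 CPM in WT-MyoD libraries and 325 and 348 CPM in untreated libraries, with a log2 fold change of -0.63 in VP64-MyoD over untreated cells (SE 0.07, adjusted p = 7.5e-07 by edgeR). MBNL2 had 93.6 and 95.9 CPM in VP64-MyoD libraries, 126 and 119.7 CPM in WT-MyoD libraries and 139.7 and 152 CPM in untreated libraries, with a log2 fold change of -0.62 (SE 0.07, adjusted p = 6.1e-07 by edgeR). The calls of both in WT-MyoD over untreated cells ended without untreated replicate 2 (adjusted p = 0.17 for MBNL1 and 0.12 for MBNL2).

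The genes whose profiles lay nearest to each member over the 6 libraries, each centred on its untreated mean, were found among 10657 genes with a mean of at least 5 CPM. Nearest to MEF2C were APCDD1L, HOMER2, MAMDC2, STK17B and CSDC2, at root mean square distances of 0.06 to 0.12 on the log2 scale. HOMER2, a scaffold of calcium signalling proteins, had 31.2 and 33.2 CPM in VP64-MyoD libraries, 24.4 and 25.7 CPM in WT-MyoD libraries and 7.14 and 7.54 CPM in untreated libraries. STK17B, a serine/threonine kinase, had 137 and 144 CPM in VP64-MyoD libraries, 102 and 109 CPM in WT-MyoD libraries and 33.7 and 35.2 CPM in untreated libraries.

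Nearest to MEF2D were LIMD1, MIDEAS, MYEF2, GGA2 and DCBLD2, at distances of 0.04 to 0.07. LIMD1, a LIM-domain scaffold protein, had 55.9 and 53.9 CPM in VP64-MyoD libraries, 48.6 and 59.2 CPM in WT-MyoD libraries and 28.3 and 31.2 CPM in untreated libraries. Nearest to MEF2A were SZRD1, AGO4, NPAT, TMLHE and CEP76, at distances of 0.02 to 0.03. None of the nearest genes stood in the gene lists used here, which are short, and MEF2B was too low to be matched.

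Markers of other tissues in which MEF2C is known were mostly at or near no counts. The cardiac genes NKX2-5 and GATA4 had none in any library, and the 8 cardiac markers summed to 4.38 and 4.12 CPM in VP64-MyoD cells, 10.1 and 9.24 CPM in WT-MyoD cells and 6.50 and 7.63 CPM in untreated cells, of which HAND2 made up most. The 5 endothelial markers summed to between 8.17 and 11.6 CPM in all libraries, of which TEK made up most. Singly, 2 of the 5 were higher and 2 lower in VP64-MyoD over WT-MyoD cells, against 28.4% and 28.2% of genes. The 6 blood and B-cell markers summed to between 1.06 and 2.86 CPM. Only 2 of them passed the filter, and both were higher in VP64-MyoD than in WT-MyoD cells, against 28.4% of genes. The 7 neuronal markers summed to 69.3 and 63.2 CPM in VP64-MyoD cells, 11.7 and 10.5 CPM in WT-MyoD cells and 5.29 and 5.59 CPM in untreated cells. Most of that sum was STMN2, a tubulin-binding protein of growing neurites, with 66.4 and 59.9 CPM in VP64-MyoD libraries, 9.61 and 9.15 CPM in WT-MyoD libraries and 3.53 and 3.86 CPM in untreated libraries, while NEUROD1 had no counts and SNAP25 had counts in 1 WT-MyoD library alone. Of the 4 neuronal markers tested, 3 were higher in VP64-MyoD over untreated cells, against 33.0% of genes. In VP64-MyoD over WT-MyoD cells 2 were higher, against 28.4%. SYN1, lower than STMN2 in level, had 2.19 and 2.37 CPM in VP64-MyoD libraries, 0.459 and 0.584 CPM in WT-MyoD libraries and 0.922 and 1.41 CPM in untreated libraries.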

How the data were processed

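Whole-number read counts per RefSeq transcript were deposited by the authors; the submitters' processing notes name the hg19 build, DESeq 1.10.1, Bowtie 0.12.9 and CASAVA. The authors' deposited table of called transcripts gives normalized means (signal), fold changes as a linear ratio and as log2, and p-values from the authors' own test. Rows were given symbols from RefSeq (39324) or GENCODE release 29 (517); 868 matched none and kept their accession, and 1 row is the mouse transgene. Libraries are unstranded Nextera libraries per the labels' protocols, so antisense reads cannot be told apart. Counts were summed per symbol and tested with edgeR 4.0.16 (R 4.3.3): TMM scaling, filterByExpr with a minimum count of 10 and total of 15, and 1 fit of all 3 groups with 3 residual degrees of freedom. Transcript rows were fitted likewise, and transcript use was tested with edgeR's diffSpliceDGE. Of 40710 rows, 28247 passed. CPM values use the TMM-scaled library sizes. SE is the size of the log2 fold change divided by the square root of its F statistic. Likeness was measured on log2(CPM + 0.1). Alternatives used DESeq2 1.42.0 and limma 3.58.1. The tests recovered known changes in simulated data, where rows were drawn independently and few features changed. The simulation thus does not cover rows that share reads. The members and lists were chosen with earlier results of these data known. In each list of coactivators, kinases and phosphatases, targets and splicing genes, the text names the 4 with the smallest adjusted p in VP64-MyoD over untreated cells and the 2 with the largest change between the MyoD forms; all MEF2 genes, partners and repressors are named. Floors cover counting error only. The sequence of 1 MEF2A exon is not reported here.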

Additional observations from a re-analysis of the deposited data

How the results depend on the processing

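Of 180 alternative values for the 4 MEF2 genes, 175 kept their side of the threshold, and no MEF2C value changed sign. Of those 175, 5 of MEF2B and 2 of MEF2D, in comparisons called neither in the reported fit nor in the alternative, changed sign: MEF2B ran from -0.65 to 0.14 in VP64-MyoD over untreated cells, from -0.15 to 0.16 in WT-MyoD over untreated cells and from -0.63 to 0.16 in VP64-MyoD over WT-MyoD cells, and MEF2D from -0.12 to 0.09 in the last. MEF2C had log2 fold changes of 2.20 to 2.41 in VP64-MyoD over untreated cells, 1.59 to 1.79 in WT-MyoD over untreated cells and 0.59 to 0.63 in VP64-MyoD over WT-MyoD cells. The 5 that crossed the threshold were all of MEF2A. In VP64-MyoD over untreated cells its log2 fold change ran from -0.22 to -0.14 when 1 library was left out, with adjusted p between 0.0023 and 0.18, and reversed to 0.01 (adjusted p = 0.92) with library totals and no further scaling. In WT-MyoD over untreated cells it became called with library totals, at 0.26 (adjusted p = 0.003). That scaling, chosen after seeing the data, moved the median of all genes by 0.19 in VP64-MyoD over untreated cells and by 0.17 in WT-MyoD over untreated cells; the share of calls that were higher was 68.5% and 75.6% with it, against 52.4% and 53.7% with TMM.

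The counts of calls in transcript use moved most. Leaving out 1 library gave 21 to 96 calls in VP64-MyoD over untreated cells (48 with all libraries), 4 to 18 in WT-MyoD over untreated cells (10) and 8 to 46 in VP64-MyoD over WT-MyoD cells (35). The limma ratio fit, added because the planned test gave fewer small p-values than its nominal rate, called 377, 151 and 178 rows in these comparisons; the cause was not tested. Of 678 alternative values for MEF2 rows, 7 lost and 5 gained a call, all in MEF2A. Same-numbered libraries of different groups did not deviate together (r = 0.00709, 0.0223 and 0.0316), so the numbers do not pair the samples; a replicate block gave 9906 calls in VP64-MyoD over untreated cells against 9950 without it. With 2 libraries a group, small changes such as that of MEF2A are at the limit of what was detectable.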
